A study of Mus musculus with 4 samples.

Results

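The genes described here are 8 genes of microglia for sensing or clearing extracellular nucleotides, or of the receptor families that do so: P2ry12, P2ry13, P2ry6, Gpr34, P2rx4, P2rx7, Entpd1 and Adora3. They were taken by symbol from a table of 12800 genes, in which all 8 were found. No rule on their values was used, but earlier results of these data were known when they were chosen. Transcripts of single microglia, the resident macrophages of the brain, were counted in male mice of 12 to 14 months with a droplet assay in which each captured molecule carries a unique molecular identifier (UMI). The 4 libraries were Trem2 +/+ on control diet, Trem2 +/+ on 0.2% cuprizone, Trem2 +/- on 0.2% cuprizone and Trem2 -/- on 0.2% cuprizone, each after 12 weeks of the diet. They are called wild-type control, wild-type cuprizone, heterozygote and knockout below. Cuprizone is a copper chelator that kills oligodendrocytes and strips myelin, and Trem2 encodes a lipid-sensing receptor of microglia. Each library pools 2 animals, and the cells were sorted as live, CD11b+ and CD45low. The 1 control-diet library is wild type, so an effect of the Trem2 genotype without cuprizone cannot be read, and the Trem2 allele is not given in the labels. Every group is 1 library, so there is no replicate check, no p-value is given, and all intervals are 95% intervals that cover counting error only.

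Damaged cells release ATP and related nucleotides. P2ry12 and P2ry13 encode Gi-coupled receptors for ADP, and P2ry12 steers microglial processes toward sites of injury. P2ry6 encodes a receptor for UDP linked to phagocytosis. Gpr34 is related to the P2Y receptors by sequence, but its known ligand is the lipid lysophosphatidylserine. P2rx4 and P2rx7 encode ATP-gated cation channels, the first tied to microglial activation after nerve injury and the second to inflammasome activation and release of interleukin 1 beta. Entpd1 (CD39) degrades ATP and ADP to AMP at the cell surface, and Adora3 encodes a Gi-coupled receptor for adenosine, the product of further breakdown. P2ry12, P2ry13 and Gpr34 are widely used as marks of homeostatic microglia.

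Some of the genes are neighbours in the genome (build GRCm38). In the GENCODE vM21 annotation P2ry13 (ENSMUSG00000036362, chr3:59207892-59210882) and P2ry12 (ENSMUSG00000036353, chr3:59216272-59262871) are on the minus strand, 5389 bases apart. Both sit inside Med12l on the opposite strand, which had 66 to 103 UMIs per library. P2rx7 (ENSMUSG00000029468, chr5:122643911-122691432) and P2rx4 (ENSMUSG00000029470, chr5:122707544-122729738) are on the plus strand, 16111 bases apart. P2ry6 (ENSMUSG00000048779, minus strand) is at chr7:100937630-100974649, Entpd1 (ENSMUSG00000048120, plus strand) at chr19:40612366-40741602 and Gpr34 (ENSMUSG00000040229, plus strand) at chrX:13632089-13640858, inside Cask on the opposite strand. Adora3 (ENSMUSG00000000562, plus strand, chr3:105870858-105908926) overlaps Tmigd3 on the same strand, so reads could be split between them. Tmigd3 had 2 to 13 UMIs per library against 436 to 616 of Adora3.

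The 250 bases upstream of P2ry12 and of P2ry13 are shown because these 2 neighbours had nearly the same pattern of levels in what follows. Both are RefSeq sequences of build GRCm38.p6, minus strand, written 5′ to 3′ up to the last base before the RefSeq start. The first is chr3:59262986-59263235 and the second chr3:59210883-59211132. Capitals mark AGGAAG, a form of the purine-rich core bound by ETS factors such as the myeloid factor PU.1.

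P2ry12: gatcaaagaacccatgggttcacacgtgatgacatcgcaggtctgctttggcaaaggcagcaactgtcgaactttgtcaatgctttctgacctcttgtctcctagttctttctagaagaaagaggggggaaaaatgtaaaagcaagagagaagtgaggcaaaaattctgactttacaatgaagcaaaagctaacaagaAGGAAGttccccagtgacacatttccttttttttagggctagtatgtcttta

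P2ry13: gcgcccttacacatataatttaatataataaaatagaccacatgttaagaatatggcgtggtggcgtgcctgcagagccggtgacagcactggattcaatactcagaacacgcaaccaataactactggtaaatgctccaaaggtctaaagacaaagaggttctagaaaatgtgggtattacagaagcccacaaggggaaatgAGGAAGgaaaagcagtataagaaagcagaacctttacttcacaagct

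The match began at position -52 from the RefSeq start of P2ry12 and at -47 from that of P2ry13. For P2ry12 the window stops at 59262986, short of the GENCODE start at 59262871 on the minus strand. The position of -52 thus holds for the RefSeq start only. AGGAAG, read on both strands, was present in 5 of the 8 windows of the 6 genes with an entry, and in 29.5% of all 32851 windows of this length. The 5 are 1 each of P2ry12, P2ry13, P2rx7, Entpd1 and Adora3, and the other windows of P2rx7 and Entpd1, which have 2 each, lacked it. The related word GAGGAA, which can overlap it, was in 3 of the 8 windows (P2ry13, Entpd1 and Adora3), against 23.3% of all windows. The E-box CACGTG was in 1 of 8, that of P2ry12 (6.02% of all windows), and the AP-1 word TGACTCA in 2 of 8, of P2rx7 and Adora3 (4.46%). A match is a description of the letters and not evidence of binding.

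Levels were taken over 6 of the authors' 8 cell clusters (01, 02, 04, 05, 06 and 08), which held 479 cells of wild-type control, 663 of wild-type cuprizone, 695 of the heterozygote and 753 of the knockout, with 3638474 to 6552603 UMIs per library. A level is the gene's UMIs divided by all UMIs of the pooled cells, times 1000000 (CPM). All 11 markers of microglia had at least 50 UMIs in each pool, and their summed level lay between 31462 and 36595 CPM. Trem2 stood at 3132, 2939, 1763 and 520.1 CPM in the same order, which follows the genotypes, although 3′ tags outside a deleted part would check nothing. Cluster 03 was mixed, led by granulocyte genes such as Elane and Prss34 together with Enpp2 and the endothelial gene Cldn5, and its markers of neutrophils summed to 103469 CPM and those of choroid plexus or ependymal cells to 70687 CPM. Cluster 07 carried markers of border-associated macrophages, those of meninges and vessels, at 3379 CPM against 140 to 494 CPM in the other clusters. Its microglia markers summed to 27192 CPM, within the range of the pooled clusters (26045 to 43019 CPM). Whether its cells are border macrophages or activated microglia was left undecided. Both were left out of the pool and are described by number. The 8 neutrophil markers still summed to 0.550, 48.3, 1775 and 647 CPM in the 4 pools, with 7 of the 8 at 0 in the control, and their part in the values below was not tested. The 10 markers of border-associated macrophages summed to 369, 419, 426 and 304 CPM in the pools. Of these, 4 were called at least 1.5-fold higher in wild type on cuprizone than in the control, against 2.59% of all genes compared. In the knockout 5 were called at least 1.5-fold lower than in wild type on cuprizone, against 3.86%. P2rx4 described below had both directions. P2rx7 had that in the knockout, and its interval between diets held 1. The part of these markers was likewise not tested.

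P2ry12 was measured at 3130 CPM in wild-type control, 2227 in wild-type cuprizone, 2182 in the heterozygote and 2658 in the knockout. The control library was the highest and the heterozygote the lowest, and the Poisson intervals of wild-type cuprizone (2190 to 2265) and the heterozygote (2147 to 2218) overlapped while those of the other libraries did not. In wild type the level on cuprizone was 1.41-fold lower than on control diet (1.37 to 1.44). In the knockout it was 1.19-fold higher than in wild type on the same diet (1.17 to 1.22), and it remained 1.18-fold lower than in the control (1.15 to 1.21).

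P2ry13 followed the same order, with 544 CPM in the control, 388 in wild-type cuprizone, 368 in the heterozygote and 421 in the knockout. The control interval lay above all others, and those of wild type on cuprizone and the heterozygote overlapped. The wild-type difference between diets was 1.40-fold (1.32 to 1.49), close to that of P2ry12. The knockout was 1.08-fold above wild type on cuprizone (1.03 to 1.15), a smaller gap than for P2ry12, and its sign turned in 4 of 11 settings: without cluster 04 (log2 ratio -0.06), without clusters 04 and 08 (-0.03), with equal weight of clusters (-0.07) and with cells thinned to one depth (-0.01). The thinned value is 1 random draw of UMIs. Another draw at the same depth had the knockout higher, with means of 1.459 UMIs per cell against 1.419 in wild-type cuprizone.

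Gpr34 stood at 1257 CPM in the control, 958 in wild-type cuprizone, 939 in the heterozygote and 1145 in the knockout. The order of libraries was that of P2ry12. The cuprizone level in wild type was 1.31-fold lower than the control (1.26 to 1.36), and the knockout lay 1.20-fold above wild type on cuprizone (1.16 to 1.24). The 3 genes thus had their highest level in the control library, their lowest in the heterozygote, and an intermediate level in the knockout.

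**Figure D1:**
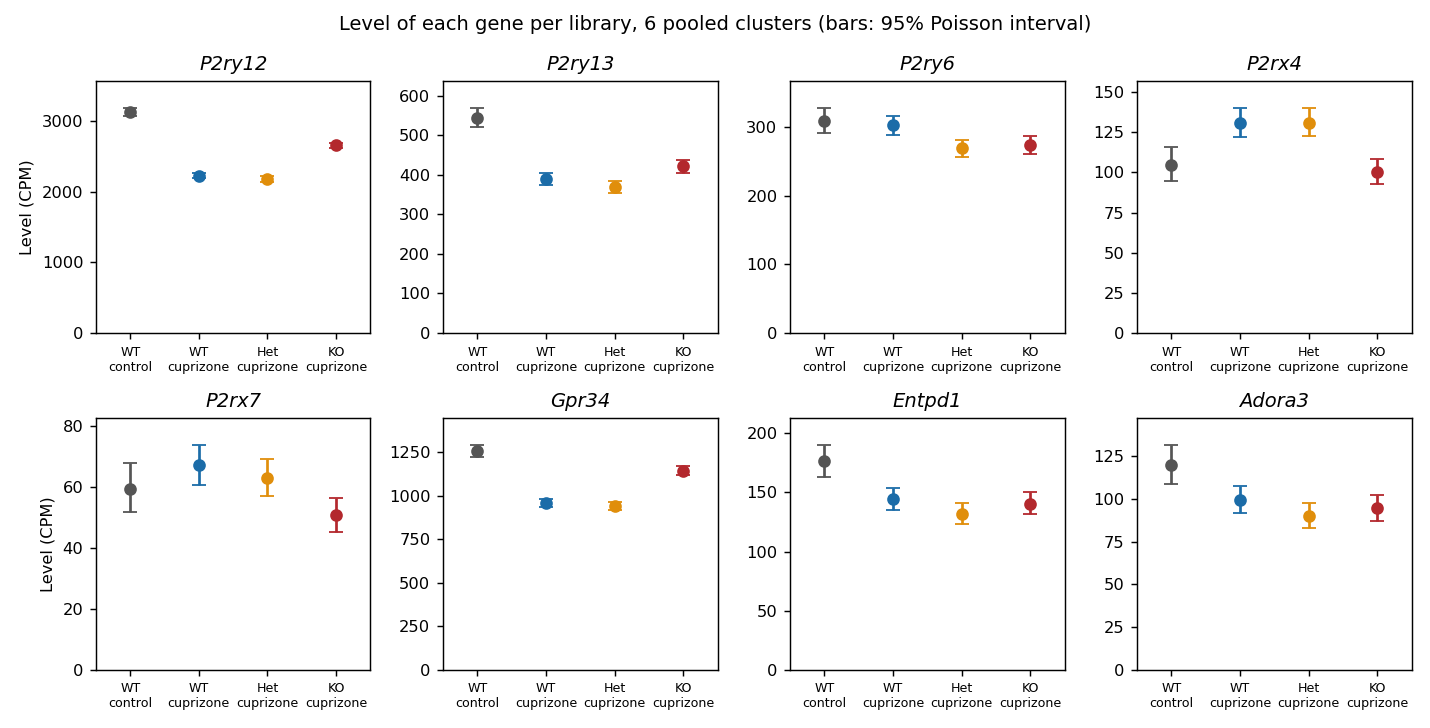
Level of each of the 8 genes in the 4 libraries, in CPM over the pooled clusters (vertical axis from 0, its scale set for each gene), with exact Poisson 95% intervals as error bars and 1 library per point. P2ry12, P2ry13 and Gpr34 are highest in wild-type control and intermediate in the knockout, while P2rx4 is highest in the wild-type cuprizone and heterozygote libraries.

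The ATP-gated channels had another order. P2rx4 was at 104.7 CPM in the control, 130.7 in wild-type cuprizone, 130.9 in the heterozygote and 100.4 in the knockout. The heterozygote did not differ from wild type on cuprizone beyond counting error in the pool (ratio 1.002, 0.909 to 1.10), and both lay above the control and the knockout with intervals that did not overlap. In wild type the cuprizone level was 1.25-fold higher than on control diet (1.10 to 1.41), and in the knockout it was 1.30-fold lower than in wild type on cuprizone (1.17 to 1.45). The knockout and the control differed by 1.04-fold, with an interval that held 1 (0.917 to 1.19). Of 6 clusters compared, the heterozygote stood apart from wild type on cuprizone in 1, cluster 08. There it had 140.3 against 79.1 CPM from 63 and 36 UMIs (1.77-fold higher, 1.16 to 2.75). Genes of disease-associated microglia stood at 72676 CPM in the heterozygote and 41423 in wild-type cuprizone in that cluster, and their part was not tested.

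P2rx7, with the fewest UMIs of the 8 genes, stood at 59.4 CPM in the control, 67.0 in wild-type cuprizone, 62.9 in the heterozygote and 50.7 in the knockout. The intervals of the first 3 libraries overlapped, and the knockout was the lowest, with an interval that overlapped that of the control but not those of the others. The knockout level was 1.32-fold lower than that of wild type on cuprizone (1.14 to 1.53) and 1.24-fold lower than that of the heterozygote (1.07 to 1.44). The wild-type ratio between diets was 1.13-fold higher with an interval that held 1 (0.956 to 1.34), and the sign turned when every deposited cell was counted (log2 ratio -0.04).

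The UDP receptor gene P2ry6 varied least between libraries, at 309 CPM in the control, 303 in wild-type cuprizone, 269 in the heterozygote and 274 in the knockout. The heterozygote and the knockout were below the other libraries. Wild type did not differ between diets beyond counting error (1.02-fold lower, 0.947 to 1.10), and TMM scaling of the libraries gave the opposite sign (log2 ratio 0.09). Against wild type on cuprizone the heterozygote was 1.13-fold lower (1.05 to 1.20) and the knockout 1.11-fold lower (1.04 to 1.18).

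Entpd1, the ectonucleotidase, stood at 176 CPM in the control, 144 in wild-type cuprizone, 132 in the heterozygote and 141 in the knockout. The control was highest, and the intervals of the 3 cuprizone libraries overlapped. Wild type on cuprizone was 1.22-fold lower than the control (1.10 to 1.35). Adora3 stood at 119.8, 99.4, 89.7 and 94.6 CPM in the same order, and the wild-type cuprizone level was 1.21-fold lower than the control (1.06 to 1.36). For both genes the intervals of the knockout and heterozygote ratios to wild type on cuprizone held 1 in the pool. With clusters 01, 02, 05 and 06 weighted equally, the log2 ratio of Entpd1 was -0.21 in the knockout (-0.04 in the pool). In the heterozygote it was -0.26 (-0.13 in the pool). The knockout was lower in 5 of the 5 clusters compared, but the interval excluded 1 in only 1 of them, cluster 06. The log2 ratio in the knockout was -0.60 in that cluster, beside -0.13 to -0.03 in clusters 01, 02 and 05. Adora3 in the knockout went from -0.07 in the pool to -0.18 with equal weights, with -0.67 in cluster 06 and -0.09 to 0.09 in clusters 01, 02 and 05. It was -0.34 when cells were thinned to one depth, a value of 1 random draw of UMIs. Another draw at the same depth gave a smaller gap, with means of 0.278 UMIs per cell in the knockout and 0.318 in wild-type cuprizone.

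A gene was called where its ratio reached 1.5-fold in either direction, its counting interval excluded 1 and the 2 libraries held at least 50 UMIs. By that rule 0 of the 8 genes were called higher and 0 lower in wild type on cuprizone against control, where 2.59% of the 8819 genes compared were called higher and 4.44% lower. In the knockout against wild type on cuprizone 0 of 8 were called in either direction, against 1.64% of 9189 genes higher and 3.86% lower. In the heterozygote against wild type on cuprizone 0 of 8 were called, against 1.32% of 9248 genes higher and 1.17% lower. The median log2 ratio of the 8 genes was -0.28, -0.05 and -0.08 in these comparisons, beside -0.11, -0.00 and -0.01 over all genes compared. All of the comparisons use the wild-type cuprizone library. In the first comparison TMM scaling moved the median of all genes from -0.11 to 0.01 and the share of called genes that were higher from 36.8% to 63.2%. After that scaling P2ry12 was at a log2 ratio of -0.37, Gpr34 at -0.27 and P2rx4 at 0.44, so their directions stood.

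**Figure D2:**
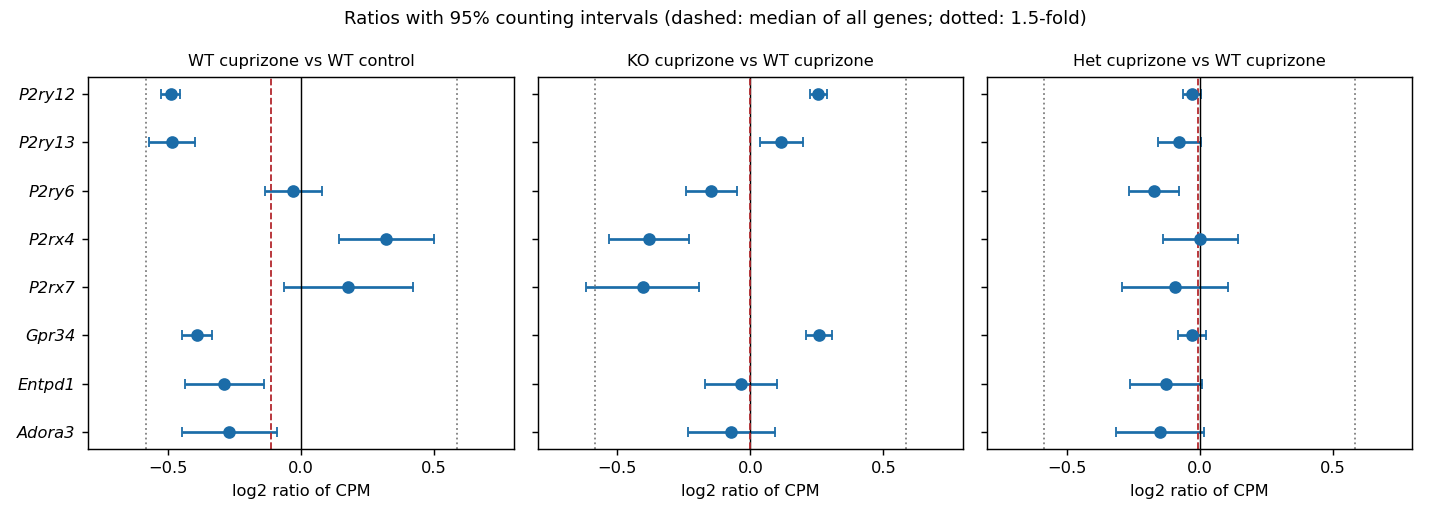
Log2 ratio of each gene in 3 comparisons between libraries, with exact conditional binomial 95% intervals (counting error only) as horizontal bars. In wild type on cuprizone 5 genes lie below 0 with intervals that exclude it and P2rx4 lies above, and in the knockout P2ry12 and Gpr34 lie above 0 while P2rx4 and P2rx7 lie below.

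The differences between clusters were larger than those between libraries for each of the 8 genes, by the ratio of the highest to the lowest level. The authors' file marks P2ry12, P2ry13, P2rx4 and Entpd1 as analysed in the clustering, so their levels by cluster are in part built in. P2ry6, P2rx7, Gpr34 and Adora3 are not so marked. All levels by cluster are given as description.

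P2ry12 was at 4276 CPM in cluster 06, 3924 in cluster 01, 3702 in cluster 05, 2153 in cluster 08, 2083 in cluster 02 and 1003 in cluster 04, summed over the 4 libraries. Clusters 08 and 02 overlapped in their Poisson intervals, and the other neighbours in this order did not. The range within the pool was 4.26-fold for P2ry12, 3.99-fold for P2ry13, 3.10-fold for Adora3, 2.54-fold for Gpr34 and 2.22-fold for Entpd1. All 5 were lowest in cluster 04, a cluster in which genes of disease-associated microglia stood at 89133 CPM in wild type on cuprizone, against 21867 to 41423 CPM in that library's other pooled clusters. P2ry6 ranged over 1.47-fold, from 345 CPM in cluster 01 to 236 CPM in cluster 04. The channels did not share this order.

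P2rx4 was highest in cluster 04, at 174 CPM, against 97.8 to 112.8 CPM in clusters 01, 02, 05 and 06. P2rx7 was highest outside the pool, at 107 CPM in cluster 07, against 66.7 CPM in cluster 05, the highest of the pooled clusters, and 55.6 CPM in cluster 04. In cluster 07 its level was 110.9 CPM in the control, 99.2 in wild-type cuprizone, 100.8 in the heterozygote and 112.3 in the knockout, with intervals that overlapped. P2rx4 was also high there, with 166 CPM over all libraries. The ADP receptors were low in cluster 07, with P2ry12 at 1783 CPM and P2ry13 at 313 CPM.

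For P2ry12 cluster 07 had the same order of libraries as the pool. There it was at 2174 CPM in the control (2087 to 2263), 1573 in wild-type cuprizone (1478 to 1673), 1473 in the heterozygote (1387 to 1562) and 1740 in the knockout (1667 to 1816). The control lay above the others, and the interval of wild type on cuprizone overlapped those of the heterozygote and of the knockout. P2rx4 was at 133 CPM in the control (112 to 157), 203 in wild-type cuprizone (169.8 to 241), 187 in the heterozygote (157 to 221) and 161 in the knockout (139.7 to 186), and the control lay apart from wild-type cuprizone and the heterozygote while the knockout overlapped all 3. The disease-associated genes stood at 44418, 66032, 73618 and 56099 CPM in these cells, whose median depth was 12319, 6324, 6932 and 9628.5 UMIs, and the part of either was not tested.

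Depth differed between clusters too, with a median of 16984.5 UMIs per cell in cluster 02 and 3387 in cluster 01, and its part in the cluster levels was not tested.

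**Figure D3:**
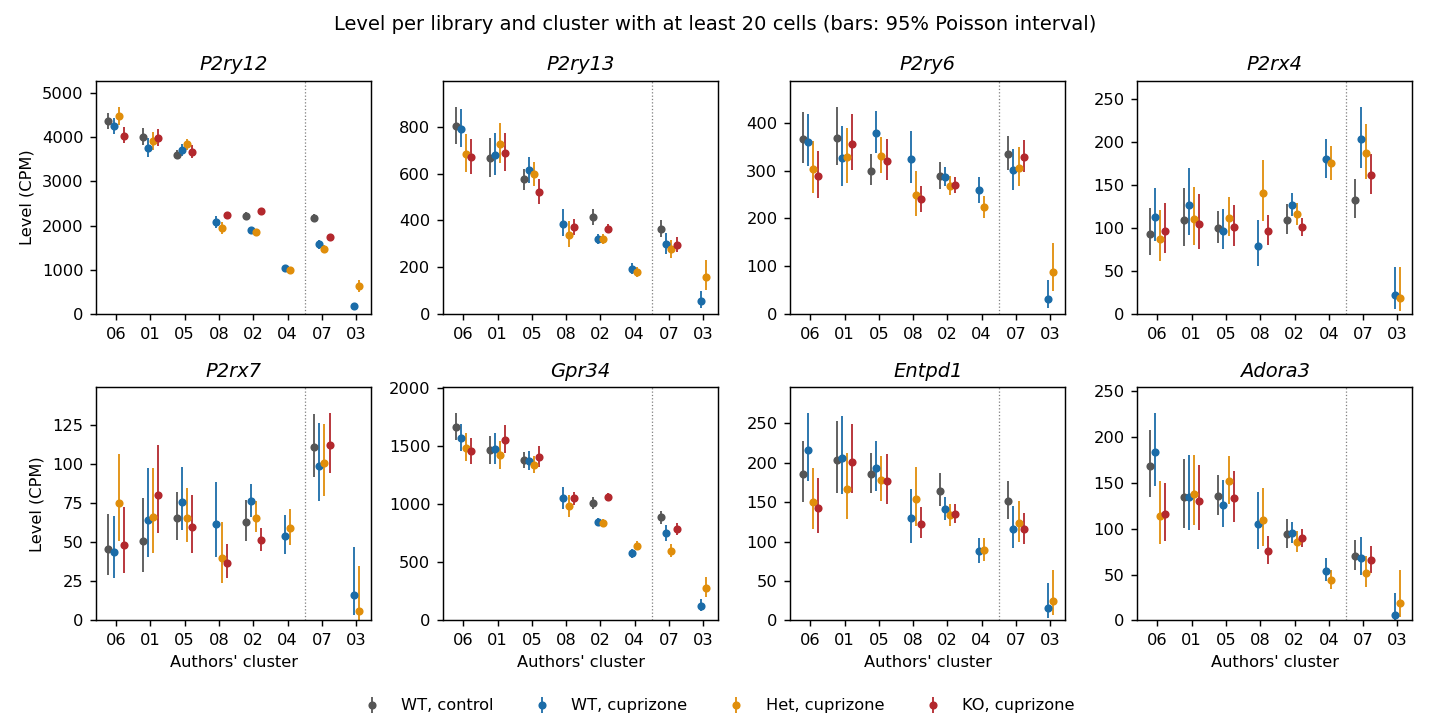
Level of each gene in each of the authors' clusters that held at least 20 cells of a library, in CPM (vertical axis from 0), 1 point per library and cluster with its exact Poisson 95% interval; clusters right of the dotted line were left out of the pool. Inside the pool P2ry12, P2ry13, Gpr34, Entpd1 and Adora3 are low in cluster 04, where P2rx4 is high, and P2rx7 is highest in cluster 07.

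Cluster 04 had 122 cells of wild type on cuprizone and 150 of the heterozygote, but 6 of the control and 13 of the knockout, so the contrast of this cluster with the rest of the pool was made inside the first 2 libraries. In wild type on cuprizone P2ry12 stood at 1036 CPM in cluster 04 and 2578 CPM in the other pooled clusters, 2.49-fold lower (2.36 to 2.63). In the heterozygote it stood at 988 against 2628 CPM, 2.66-fold lower (2.53 to 2.80). Both libraries thus had the ADP receptor gene lowest in the cells with the most disease-associated transcripts.

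P2ry13 was 2.31-fold lower in cluster 04 in wild type and 2.45-fold lower in the heterozygote. Adora3 was 2.09-fold and 2.44-fold lower, Gpr34 1.86-fold and 1.63-fold lower, and Entpd1 1.84-fold and 1.66-fold lower. P2ry6 was nearer to 1, at 1.22-fold and 1.28-fold lower. Of the 8 genes P2rx4 alone was higher in cluster 04 in both libraries, at 180 against 116 CPM in wild type (1.55-fold, 1.33 to 1.80) and 175 against 114 CPM in the heterozygote (1.53-fold, 1.33 to 1.76). P2rx7 was 1.31-fold lower in wild type (1.02 to 1.71) and did not differ beyond counting error in the heterozygote (1.09-fold lower, 0.872 to 1.38).

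**Figure D4:**
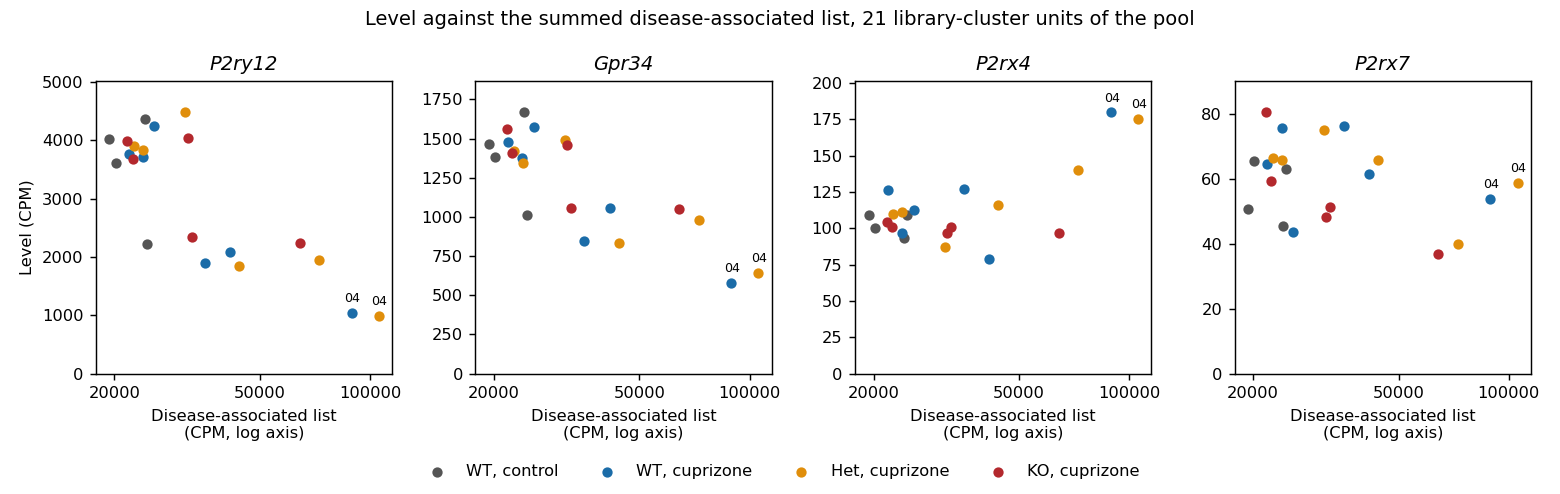
Level of P2ry12, Gpr34, P2rx4 and P2rx7 in CPM (vertical axis from 0) against the summed level of 15 genes of disease-associated microglia in CPM (log axis), 1 point per library and pooled cluster with at least 20 cells. P2ry12 and Gpr34 are lowest and P2rx4 highest in cluster 04 of the wild-type cuprizone and heterozygote libraries, where the disease-associated genes are highest.

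Over the 21 units of a library and a pooled cluster, the log2 level of P2ry12 had a Pearson correlation of -0.869 with the summed level of the 15 disease-associated genes, and those of P2ry13, P2ry6, Gpr34, Entpd1 and Adora3 lay between -0.884 and -0.833. P2rx4 had 0.606 and P2rx7 -0.366. These are descriptions with no test, since units of a library share its animals, its depth and the clustering. The levels moved with depth as well, with correlations to the median UMIs per cell of -0.679 for P2ry12, -0.731 for Gpr34 and 0.325 for P2rx4. With 4 units of cluster 07 and 2 of cluster 03 added, the correlation of P2ry12 with the disease-associated genes was -0.214. The 2 units of the mixed cluster 03 had P2ry12 at 172 and 623 CPM beside disease-associated genes at 13391 and 24995 CPM. Those of cluster 07 had P2ry12 at 1473 to 2174 CPM beside 44418 to 73618 CPM. The part of each cluster in the weaker value was not tested.

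Within clusters the difference between diets in wild type was smaller than in the pool for the ADP receptors. Clusters 01, 02, 05 and 06 had at least 20 cells in all 4 libraries. With these weighted equally, the log2 ratio of P2ry12 in wild type on cuprizone against control was -0.08, beside -0.49 in the pool. For P2ry13 the values were -0.07 and -0.49, and for Gpr34 -0.08 and -0.39. Entpd1 and Adora3, below 0 in the pool, were at 0.02 and 0.01. P2rx4 kept part of its difference, at 0.16 beside 0.32.

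The makeup of the pools differed, since cluster 04 held 1.25% of pooled cells in the control, 18.4% in wild type on cuprizone, 21.6% in the heterozygote and 1.73% in the knockout. Without that cluster the wild-type ratio between diets of P2ry12 was -0.30 on the log2 scale, that of Gpr34 -0.24 and that of P2rx4 0.15. Cluster 08 moved in another way, with 2.71%, 11.5%, 11.1% and 23.2% of pooled cells in the same order. Its removal together with cluster 04 left P2ry12 at -0.28. In the knockout against wild type on cuprizone, leaving out cluster 04 moved P2ry12 from 0.26 to 0.07, Gpr34 from 0.26 to 0.11 and P2rx4 from -0.38 to -0.22, while P2rx7 went from -0.40 to -0.47.

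Cluster 02, the deepest, was the one of the 4 clusters with enough cells in all libraries in which the ADP receptors and Gpr34 differed in wild type between diets. There P2ry12 was at 2224 CPM in the control, 1902 in wild-type cuprizone, 1853 in the heterozygote and 2337 in the knockout. The ratio of wild type on cuprizone to control was 0.855 (0.818 to 0.894), and the corresponding ratios were 0.769 for P2ry13 (0.692 to 0.854) and 0.838 for Gpr34 (0.784 to 0.895). In clusters 01, 05 and 06 the intervals of these 3 genes held 1 in that comparison. The disease-associated genes also differed inside cluster 02, at 24612, 35330, 43882 and 32513 CPM in the 4 libraries, and their part in these ratios was not tested.

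The knockout differed from wild type on cuprizone in cluster 02 as it did in the pool, but the 2 are not independent. Cluster 02 gave 8181 of the 17317 P2ry12 UMIs of the knockout pool and 5192 of the 13753 of wild-type cuprizone. P2ry12 was 1.23-fold higher (1.19 to 1.27), Gpr34 1.25-fold higher (1.18 to 1.32) and P2ry13 1.14-fold higher (1.05 to 1.25). P2rx4 was lower there, at 100.8 against 127.1 CPM (ratio 0.793, 0.682 to 0.923), and P2rx7 was lower at 51.4 against 76.6 CPM (ratio 0.672, 0.547 to 0.824). The median depth of cluster 02 was 14872 UMIs in the knockout and 18452.5 in wild-type cuprizone, and its part was not tested. In clusters 01, 05, 06 and 08 the intervals of P2ry12, Gpr34 and P2rx4 held 1 in that comparison. P2rx7 was also lower in cluster 08 of the knockout (ratio 0.602, 0.369 to 0.999). In clusters 05 and 06 P2ry13 was lower in the knockout, with ratios of 0.848 and 0.849 and intervals that excluded 1. Entpd1 and Adora3 were lower in cluster 06 of the knockout, with ratios of 0.659 (0.478 to 0.904) and 0.630 (0.442 to 0.893), and the heterozygote had like ratios there, 0.695 and 0.622.

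**Figure D5:**
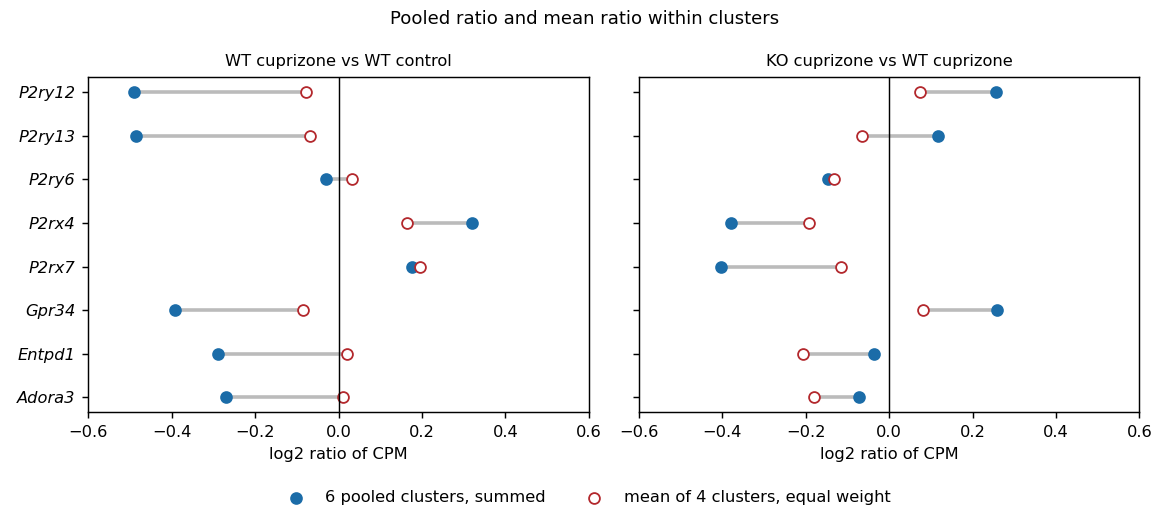
Log2 ratio of CPM of each gene in 2 comparisons (horizontal axis), with filled circles for the sum over the 6 pooled clusters, open circles for the equal-weight mean within the 4 clusters that had at least 20 cells in all libraries, and a grey line joining the pair. In wild type on cuprizone against control P2ry12 moves from -0.49 to -0.08 and P2rx4 from 0.32 to 0.16.

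Shares of cells with a UMI were compared after each cell was thinned to 2915 UMIs, with shallower cells left out (69 in the control, 59 in wild-type cuprizone, 51 in the heterozygote and 80 in the knockout). P2ry12 had a UMI in 99.3% of control cells, 95.03% of wild-type cuprizone cells, 93.6% of heterozygote cells and 99.1% of knockout cells, and unthinned in 99.8%, 97.0%, 96.8% and 99.5%. In cluster 04 the share was 76.9%, so a UMI of P2ry12 was found in most of its cells too. In the mixed cluster 03 a UMI of P2ry12 was found in 34% of 50 cells kept, with a mean of 1.2 and a median of 0 UMIs per cell. All 11 microglia markers were detected in that cluster too, at 6877 CPM in sum, so free RNA and microglia or doublets among its cells cannot be told apart. The share there was 20% for Gpr34 and 22% for P2ry13 and between 2% and 8% for the other 5 genes, at a median depth of 4959.5 UMIs before thinning against 4717 to 6849 in the pools.

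P2ry13 had a UMI in 79.5%, 69.2%, 61.2% and 71.9% of thinned cells in the same order of libraries (93.3%, 89.6%, 86.0% and 90.6% unthinned). P2rx4 had one in 23.2%, 29.0%, 30.9% and 28.2% (42.4%, 56.0%, 56.7% and 47.8% unthinned), and the share was 38.8% in cluster 04 and 39.9% in cluster 07. P2rx7 reached 27.4% in cluster 07 and 11.7% in cluster 04. With cells thinned to 3495 UMIs, the shares for P2rx4 were 24.6%, 34.2%, 35.0% and 26.7%. The knockout was near wild type on cuprizone at the first depth (28.2% and 29.0%) and below it at the second, so no order was read from the shares of that gene.

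Correlations between the 8 genes were taken over 27 units of a library and a cluster, with clusters 03 and 07 included. P2ry12 correlated with P2ry13 at 0.987 and with Gpr34 at 0.987, and Adora3 with Gpr34 at 0.977. P2rx4 and P2rx7 correlated at 0.816 with each other, and at 0.418 and 0.488 with P2ry12. P2ry6 stood between, at 0.874 with P2ry12 and 0.745 with P2rx4. Such values depended on clusters 03 and 07, and with the homeostatic genes most so for the channels. P2ry6 went from 0.934 over the 27 units to 0.802 over the 21 pooled units with the homeostatic genes. With the disease-associated genes it went from 0.170 to -0.833. The correlations between genes and the closest matches below were taken over the 27 units only. With the summed homeostatic genes P2rx4 correlated at 0.571 over the 27 units and at -0.660 over the 21 pooled units, and P2rx7 at 0.582 and 0.180, while P2ry12 had 0.972 and 0.989. Among 5305 genes with at least 500 UMIs, those most like P2ry12 were Tmem119 (0.990), Cmtm6 (0.989) and P2ry13. The genes most like Gpr34 were Bin2 (0.990), P2ry12 and Lpcat2 (0.986), and most like Adora3 were Lpcat2 (0.978), Gpr34 and Bin2.

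P2ry13 was most like P2ry12, Cmtm6 and Tmem119. P2ry6 was most like Cd86 (0.976), Hpgds (0.974) and Fcgr3 (0.973), and Entpd1 most like Slco2b1 (0.976), Abi3 (0.975) and Otulinl (0.973). The channels had weaker leading matches. P2rx4 was most like Scpep1 (0.900), C3ar1 (0.892) and Tmem176b (0.878), and P2rx7 most like Stab1 (0.885), Smagp (0.881) and Tmem176b (0.843).

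Other genes of nucleotide and adenosine signalling were taken from 9 lists with 96 genes, of which 74 are in the table and 62 had at least 50 UMIs over the pools. Genes outside the table, among them P2ry1, P2ry4, Adora2a, Adora2b and Nt5e, were not analysed here. In wild type on cuprizone against control 0 of 56 genes compared were called in either direction, and the median log2 ratio was -0.15. Of all genes 2.59% were called higher and 4.44% lower there. In the heterozygote against wild type on cuprizone 0 of 58 were called (median -0.05), against 1.32% of all genes higher and 1.17% lower. In the knockout against wild type on cuprizone 0 of 57 were called higher and 3 lower (median -0.03), where 1.64% of all genes were called higher and 3.86% lower. The 3 were Entpd7, of the same enzyme family as Entpd1, Cd38, which encodes an enzyme that degrades NAD, and the cytokine gene Il1b. In that order they had 62, 19 and 856 UMIs in the knockout and 94, 37 and 1360 in wild-type cuprizone. Cd38 was thus near the minimum of 50 UMIs.

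Il1b, whose product is released after P2X7 opening, was at 168.8 CPM in the control, 220.2 in wild-type cuprizone, 212.7 in the heterozygote and 131.4 in the knockout. Wild type on cuprizone was the highest and the knockout the lowest, with a log2 ratio of -0.74 between them. Entpd7 was at 12.9, 15.2, 11.6 and 9.52 CPM and Cd38 at 4.12, 5.99, 5.49 and 2.92 CPM. The calls of these 2 genes were lost when every deposited cell was counted, with log2 ratios of -0.54 and -0.32, where that of Il1b was -0.63.

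The other P2Y, P2X and adenosine receptors were sparse. P2ry10b had 9.82 to 13.5 CPM and P2ry2 0.550 to 1.78 CPM, P2rx1 3.08 to 4.30 CPM and Adora1 0.610 to 1.10 CPM. Gpr183, a receptor for oxysterols, stood at 123 to 156 CPM and Gpr65, a proton sensor, at 16.5 to 28.8 CPM. Among the other lists the genes with most UMIs were Enpp4 (10.2 to 14.4 CPM), the nucleoside transporters Slc29a3 (131 to 154 CPM) and Slc29a1 (102 to 110.5 CPM), the channel genes Lrrc8a (59.1 to 80.8 CPM) and Calhm2 (31.9 to 43.2 CPM), Rgs10 (1492 to 1874 CPM) and Rgs2 (706 to 808 CPM), which limit G protein signalling, and the inflammasome adaptor Pycard (482 to 536 CPM). Of 17 other genes of homeostatic microglia 2 were called lower in wild type on cuprizone against control (against 4.44% of all genes), with a median log2 ratio of -0.32, near the median of -0.28 of the 8 genes described here. In the knockout against wild type on cuprizone 1 of the 17 was called higher (median 0.08), against 1.64% of all genes.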

How the data were processed

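The authors deposited raw counts of UMIs for every gene in every cell, made with Cell Ranger 2.1.1 on mm10, per the submitters' processing notes. The cluster and library of each cell are those of the authors' deposited file of cells. The table lists 12800 genes, each with a UMI in at least 8 of 3023 cells, and 8 barcodes occur in more than 1 library. The gene annotation behind the counts and the settings of the clustering are not stated in the labels or files used.

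UMIs were summed per library over the pooled clusters and scaled to 1000000 (CPM), with Python 3.11.15, pandas 2.3.3 and SciPy 1.17.1. A level has an exact Poisson interval, a ratio an exact conditional binomial (Clopper-Pearson) interval and a share an exact binomial interval, all at 95%. These cover counting error only. No doublet caller was run, and leaving out the deepest 5% of cells was an alternative. TMM factors came from edgeR 4.0.16. Correlations used log2(CPM + 10). The scripts were tested on simulated data.

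Named were the 8 genes, Trem2, the list genes that were called, the 2 genes with the most UMIs of each list and the 3 genes most like each of the 8. Other list genes were counted only. The genes, lists and pooled clusters were chosen with earlier results of these data known.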

Additional observations from a re-analysis of the deposited data

How the results depend on the processing

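Each group has 1 library, so differences between animals, sorting and library preparation cannot be told apart from the groups. No paired analysis was possible because each group has 1 library and no replicate number is shared. The count of the 8 genes called was 0 in each direction and comparison under all 14 alternatives run. These were TMM scaling, every deposited cell, leaving out cluster 08, the deepest 5% of cells or the top cell of a gene, the mean of per-cell CPM, thinning to 2915 UMIs, equal weight of clusters, a 2-fold call, no minimum or a minimum of 200 UMIs, and 3 chosen after seeing the data (without cluster 04, without clusters 04 and 08, and every cell but cluster 03). The 2-fold call and the changed minimums could not have given another count. They could only narrow a count of 0, or keep it, since all 8 genes had at least 50 UMIs. Of the 24 log2 ratios of the 8 genes, 14 kept their sign in all 11 settings that gave one, and 51 of 264 values left the counting interval of the reported ratio. Thinning was 1 random draw of UMIs per cell, and it gave the lowest knockout value of Adora3. Another draw at 2915 UMIs put P2ry13 higher in the knockout than in wild type on cuprizone. For wild type on cuprizone against control the range was -0.51 to -0.08 for P2ry12, -0.50 to -0.07 for P2ry13, -0.42 to -0.08 for Gpr34 and 0.15 to 0.44 for P2rx4, the end nearest 0 coming from equal weight of clusters, or for P2rx4 from leaving out cluster 04. Entpd1 and Adora3 turned sign under equal weight of clusters alone. For the knockout against wild type on cuprizone it was 0.07 to 0.30 for P2ry12, 0.08 to 0.30 for Gpr34, -0.07 to 0.16 for P2ry13, -0.41 to -0.19 for P2rx4, -0.47 to -0.12 for P2rx7, -0.21 to -0.00 for Entpd1 and -0.34 to 0.00 for Adora3.

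Counts over all genes moved by more than 1.5 times in several settings. In wild type on cuprizone against control 392 lower genes became 196 with TMM scaling, 243 without cluster 04, 226 without clusters 04 and 08 and 235 after thinning, and 228 higher genes became 142, 147 and 133 in the last 3. Lower genes in the knockout went from 355 to 180 after thinning, and in the heterozygote from 108 to 193 with every deposited cell. P2rx7 had 216 to 414 UMIs per pool, and its ratios had the widest counting intervals of the 8 genes.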
